A study of Homo sapiens with 77 samples.

Results

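The SET domain methyltransferases of the NSD, SETD, SMYD and KMT5 groups were examined in a pooled CRISPR knockout screen of chromatin genes. The members were 76 sgRNAs against 19 genes, 4 for each gene, of 2306 sgRNAs and 564 genes in the library. They were chosen by gene symbol alone, as the library spells it: SETD2 to SETD8, NSD1, WHSC1 (now NSD2), WHSC1L1 (now NSD3), SMYD1 to SMYD5, ASH1L, SETMAR, SUV420H1 (now KMT5B) and SUV420H2 (now KMT5C). SETD8 is now called KMT5A, and SETD1A and SETD1B, which belong to complexes that methylate histone H3 at lysine 4 (H3K4), were not members. The rule used no measured value, although it was drawn up with earlier results of these data known.

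The 2 lines screened were KARPAS422, which comes from a diffuse large B cell lymphoma, carries mutant EZH2 and was made to express Cas9, and K562, a leukemia line with wild type EZH2. How Cas9 was supplied to K562, and whether either line was a single clone, is unknown here. sgRNAs were counted on day 14 and on day 0 of culture, with 1 library for each line and day. The RNA of the targeted genes was read in KARPAS422 in 2 further experiments, one with MI-503 against DMSO and one with EPZ-6438, VTP50469 or both drugs against DMSO, with 2 libraries per group. MI-503 and VTP50469 block menin, the partner of the MLL1 methyltransferase, and EPZ-6438 inhibits EZH2. The labels give no dose or duration for these drugs, and the study's text gives different ones for the 2 RNA experiments, so their values are set side by side and not compared.

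SET domain enzymes move a methyl group from S-adenosylmethionine to lysine. NSD1, NSD2, NSD3 and ASH1L place up to 2 methyl groups on lysine 36 of histone H3 (H3K36), a mark of transcribed and open chromatin, and SETD2 alone among human enzymes is thought to add the last one behind elongating RNA polymerase II. SETD8 places the first methyl group on lysine 20 of histone H4 (H4K20) and is needed for ordered DNA replication and chromosome compaction, while SUV420H1 and SUV420H2 build on that mark. NSD2 and SETD2 are both altered in blood cancers, NSD2 by a translocation or a point mutation that raises its activity and SETD2 by loss. The remaining members act largely outside histones or have less settled substrates.

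In such a screen each cell carries 1 sgRNA that directs Cas9 to cut a single gene, and an sgRNA against a gene that the cells need for growth becomes rarer with time. The log2 change of each sgRNA was taken as day 14 over day 0 after scaling to equal totals and was centred on the control sgRNAs. A value of −1 means that the sgRNA became 2-fold rarer than the controls, and a gene was scored by the median of its sgRNAs. Totals lay between 18275683 and 25031212 counts per library. All 76 member sgRNAs had at least 30 counts on day 0 in KARPAS422, and 75 did in K562, and the median day 0 count over all 76 was 5806 in KARPAS422 and 6833 in K562. Single libraries leave replicate error unmeasured, so the screen has neither a test nor a p-value. Exact (Clopper-Pearson) 95% intervals are given for single sgRNAs and cover counting error only, and PCR reads are not independent molecules. The 48 control sgRNAs over the minimum had an SD of 0.638 in KARPAS422 and of 1.30 in K562, which is wider than the counting error of most members, whose median interval was 0.115 and 0.0982 log2 units wide. The deposited tables name each sgRNA by an ID and a gene, and sgRNA sequences were not analysed here.

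In KARPAS422, 4 of the 19 methyltransferase genes scored below −1 on day 14, namely SETD8 at −2.85, SETD2 at −2.64, SUV420H2 at −1.31 and SETD3 at −1.03. In K562 none of the 19 did, and their scores ran between −0.81 for SETMAR and 0.63 for SETD3. In the whole library 32.6% of genes scored below −1 in KARPAS422, against 21.1% of the members, and 4.08% did in K562. Among single sgRNAs, 24 of 76 members (31.6%) lay below −1 in KARPAS422 beside 36.9% of all gene-directed sgRNAs, and 6 of 75 (8%) did in K562 beside 11.9%. Controls lay there too, 3 of 48 in KARPAS422 and 2 of 48 in K562. With control centring all 19 members scored below 0 in KARPAS422, as did 551 of the 564 genes, and the members' median of −0.69 was close to the −0.69 of all genes. In K562 the medians were −0.05 for the members and −0.23 for all genes. The members as a set therefore stood no lower than the library in either line, and the values below concern single genes.

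The count of 4 depended on the centre. Centring on all sgRNAs moved the median of all genes up by 0.68 log2 units in KARPAS422 and by 0.22 in K562, and scaling by library totals alone moved it up by 0.77 and 0.19. Under either choice only SETD8 and SETD2 scored below −1 in KARPAS422, and SUV420H2 (−0.62 and −0.54) and SETD3 (−0.35 and −0.26) did not. The nearest member on the other side of −1 with control centring was SUV420H1, at −0.95.

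The H4K20 enzymes had the lowest median of the 4 groups of members in KARPAS422, −1.31 over 3 genes. SETD8, the monomethyltransferase, lies on chromosome 12 of hg38 from 123384132 to 123409353 and held rank 63 of 564 from the lowest score. Its sgRNAs in KARPAS422 had 457 counts on day 14 against 11363 on day 0 for s_1781, 3218 against 20816 for s_1779, 52 against 172 for s_1782 and 2940 against 2873 for s_1780. These are log2 changes of −5.28 (interval −5.43 to −5.15), −3.34 (−3.40 to −3.29), −2.36 (−2.85 to −1.92) and −0.62 (−0.69 to −0.54). So 3 sgRNAs were far below the controls, 2 of them below the lowest control at −2.58, while the fourth stood near the library's median, and the span of 4.67 was the widest of any member gene in that line. In K562 the same sgRNAs had 7414 counts on day 14 against 8033 on day 0 for s_1781, 13531 against 16093 for s_1779 and 3641 against 2453 for s_1780, with log2 changes of 0.15, 0.02 and 0.84. The sgRNA s_1782 had 266 counts against 29 there and was left out under the minimum of 30. No sgRNA against SETD8 was thus lower than the control median in K562.

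SUV420H2 and SUV420H1 add further methyl groups to H4K20. SUV420H2, on chromosome 19 from 55339853 to 55348121, had 1277 counts on day 14 against 6098 on day 0 for s_1974, 6075 against 11758 for s_1971, 10704 against 13742 for s_1973 and 26751 against 31245 for s_1972 in KARPAS422. The log2 changes were −2.91, −1.60, −1.01 and −0.87, all in 1 direction with 3 of 4 below −1. In K562 they lay within 0.23 units of each other, between −0.45 and −0.22, the narrowest span of any member gene in that line. SUV420H1, on chromosome 11 from 68154863 to 68213852, scored −0.95 in KARPAS422 and −0.48 in K562, but its sgRNAs disagreed strongly in both lines. The sgRNA s_1967 had 26 counts on day 14 against 370 on day 0 in KARPAS422 and 6 against 336 in K562, log2 changes of −4.43 (−5.12 to −3.91) and −5.35 (−7.00 to −4.40). The other 3 lay between −1.36 and −0.34 in KARPAS422 and between −0.77 and −0.02 in K562. A single sgRNA of low starting count therefore gave SUV420H1 spans of 4.10 and 5.33, and with the mean over sgRNAs in place of the median the gene stood at −1.67 in KARPAS422 and −1.59 in K562.

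Among the 6 genes grouped here as H3K36 enzymes, with SETMAR counted in, SETD2 was the only one below −1 in KARPAS422. With control centring it was also the only member of all 19 with every sgRNA below −1, although the interval of its highest sgRNA, s_1758, held −1. SETD2 lies on chromosome 3 from 47016428 to 47164113 and held rank 74 of 564. Its sgRNAs had 975 counts on day 14 against 10421 on day 0 for s_1757, 1348 against 6888 for s_1756, 4165 against 12797 for s_1755 and 486 against 675 for s_1758. The log2 changes were −4.07 (−4.17 to −3.97), −3.003 (−3.09 to −2.92), −2.27 (−2.32 to −2.22) and −1.12 (−1.30 to −0.95). In K562 the counts were 4880 against 16374, 4620 against 8153, 9585 against 13712 and 415 against 749 in the same order, with log2 changes of −1.48, −0.55, −0.25 and −0.58. Every sgRNA was lower in KARPAS422 than in K562, and s_1757 was the lowest in both lines.

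The other H3K36 enzymes did not reach −1. ASH1L scored −0.92 in KARPAS422 and −0.11 in K562, with sgRNAs at −1.68, −1.28, −0.55 and 0.13 in KARPAS422 and at 0.16, −0.38, 0.51 and −0.92 for the same sgRNAs in K562. NSD1 scored −0.89 and −0.17, with sgRNAs at −1.91, −1.02, −0.76 and 0.00 in KARPAS422 and at 0.33, −0.21, −0.14 and −0.72 in K562. In both genes the sgRNA that was highest in KARPAS422 was the lowest in K562. WHSC1, which encodes NSD2, scored −0.43 and −0.05, with no sgRNA below −1 in either line. WHSC1L1, which encodes NSD3, scored −0.65 in KARPAS422 and 0.44 in K562. Its sgRNA s_2230 had 297 counts on day 14 against 51 on day 0 in KARPAS422, a log2 change of 1.87 (1.46 to 2.35) and the only member sgRNA above 1 there, while the other 3 lay between −0.90 and −0.54.

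SETMAR, a SET domain fused to a transposase, scored −0.23 in KARPAS422 and −0.81 in K562, the lowest of the 19 in K562. The sgRNA s_1792 had no count on day 14 against 158 on day 0 in K562, which at a floor of 3 counts makes it at least 43.7-fold lower, a log2 change of at most −5.45. In KARPAS422 it had 40 counts against 85 and a log2 change of −1.72 (−2.32 to −1.18). The second lowest, s_1794, had 1278 against 4034 in K562 (−1.39) and 3081 against 2507 in KARPAS422 (−0.35), and the other 2 lay between −0.23 and −0.10 in K562 and between −0.10 and 0.17 in KARPAS422. With s_1792 at that bound the span in K562 was at least 5.35, and a control sgRNA reached −7.15 in that line. With the mean over sgRNAs SETMAR (−2.25 with the pseudocount, at most −1.79 at the bound) and SUV420H1 were the 2 members below −1 in K562, where no member was with the median.

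SETD3 methylates a histidine of actin and is not chiefly a histone enzyme. It lies on chromosome 14 from 99397748 to 99480889, and its 4 sgRNAs lay within 0.71 units of each other in KARPAS422. They had 998 counts on day 14 against 2028 on day 0 for s_1759, 493 against 644 for s_1762, 2148 against 2782 for s_1760 and 13837 against 17198 for s_1761. The log2 changes were −1.67, −1.04, −1.02 and −0.96, and in K562 they were 0.48, 1.77, 0.78 and −0.25. At 0.63 SETD3 had the third highest score of the 564 genes in K562.

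The remaining SETD genes lay nearer the library's median in KARPAS422. SETD7, first described as an H3K4 monomethyltransferase and active on many other proteins, scored −0.74 in KARPAS422 and −0.12 in K562, with s_1777 at −1.25 in KARPAS422 and the others between −0.84 and −0.22. SETD6, which methylates the RelA subunit of NF-kB, scored −0.69 and 0.30, with s_1774 at −1.04 and the others between −0.70 and −0.56 in KARPAS422. SETD4 scored −0.48 and −0.12 and SETD5, a corepressor partner whose own enzyme activity is debated, −0.06 and 0.14. SETD5 had the highest score of the 19 in KARPAS422.

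None of the 5 SMYD genes, whose SET domain is split by a MYND zinc finger, scored below −1 in either line. SMYD4 scored −0.70 in KARPAS422 and 0.29 in K562, with sgRNAs at −1.504, −0.92, −0.48 and 0.31 in KARPAS422. SMYD2, which methylates p53 and other cytoplasmic and nuclear proteins, scored −0.62 and 0.08. One of its sgRNAs, s_1901, was at −2.30 (−2.56 to −2.06) in KARPAS422, with 178 counts on day 14, and at 1.08 in K562, with 567 against 322. SMYD3, which methylates a MAP kinase kinase kinase, scored −0.31 and 0.28, and SMYD1, a muscle protein, −0.57 and 0.42. SMYD5 scored −0.27 in KARPAS422 and −0.75 in K562, where s_1914 was at −1.71 with 255 counts against 1006 and s_1911 at −1.01 with 2665 against 6469. In KARPAS422 the 4 SMYD5 sgRNAs lay within 0.39 units of each other, the narrowest span of any member gene in that line.

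Between the lines, 17 of the 19 genes scored lower in KARPAS422 than in K562, all but SETMAR (difference 0.58) and SMYD5 (0.47), which is 89.5% beside 87.6% of all genes. The median difference, KARPAS422 minus K562, was −0.72 for the members and −0.58 for all genes. Below −1 were SETD8 (−3.004), SETD2 (−2.07), SETD3 (−1.66) and WHSC1L1 (−1.09), which is 4 of 19 beside 27.3% of all genes. Of the 75 sgRNAs over the minimum in both lines, 57 (76%) were lower in KARPAS422, beside 78.8% of all gene-directed sgRNAs and 48.9% of controls. All the sgRNAs measured in both lines were lower in KARPAS422 for SETD2, SETD3, SETD6, SETD8, SMYD3, SMYD4 and SUV420H2, and none was for SETMAR. The share of such genes over the library was not counted, so these 7 are not set apart from its general shift. The shift of the whole library against the controls moved with these differences. With all sgRNAs as the centre the median difference of the members was −0.25 and with library totals alone −0.14. The day 0 counts of the member sgRNAs were nearly the same in the 2 lines (Pearson's r 0.982 over 75 sgRNAs on the log10 scale). Their log2 changes were only loosely related (r 0.297, Spearman's rho 0.0746), and the scores of the 19 genes not visibly so (r 0.0688, rho −0.0211). These values describe sgRNAs that share a library and targets.

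Other groups of the same library are given beside the members' median of −0.69 in KARPAS422. Genes that read or erase H3K36 and H4K20 methylation had a median of −0.66 in KARPAS422, with 8 of 18 below −1, and the lowest were the acetyltransferase subunit BRPF1 (−2.36), the H3K36 demethylase KDM2A (−2.04) and TP53BP1 (−1.52), which reads H4K20 methylation at DNA breaks. H3K9 methyltransferases had a median of −1.11 (3 of 6 below −1), with EHMT2 lowest at −2.48. H3K4 methyltransferases had a median of −1.59 (4 of 6), with SETD1A lowest at −2.93, and arginine methyltransferases one of −1.10 (4 of 8), with PRMT1 at −4.73. The list of 12 genes that dividing cells need in general had a median of −4.15 in KARPAS422, with all 12 below −1. In K562 the same list had a median of −0.64 with 2 of 12 below −1, so scores of such genes reached less far down in K562 as well. PRMT1 and PRMT5 stand in both of the last lists. The lists were chosen with earlier results of these data known, and none was tested.

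RNA of the targeted genes was read in KARPAS422 to see which of them the line expressed and whether the drugs moved them. Total counts were 25106810 to 54883332 per library with MI-503 and its DMSO, and 8956156 to 21837235 in the drug combination. The B cell markers MS4A1, CD79A, CD79B and PAX5 were present in the 12 libraries (from 363 CPM for CD79B to 1730 for MS4A1, where CPM are counts scaled to a common library size after TMM normalization), and the erythroid HBG1 and HBB lay at 0 and at most 0.222. In the drug combination, replicate 2 of both drugs stood apart from replicate 1, with a chi-square statistic per gene of 47.5 between them, against 1.82 to 15.2 in the other groups. It held a count for 18199 genes at 14369280 counts in all. Its COL1A1 (2.73), GATA1 (2.38) and KRT14 (0.698 CPM) were the highest of the 12 libraries. The other markers of other cells read were not raised there. LYZ (0.872) and CD3E (2.79 CPM) lay below replicate 1 (1.37 and 2.91), and HBB and HBG1 were at 0. The part of these differences in the results on both drugs was not tested, and those results are given with and without that group's libraries. In bulk RNA, fewer cells with a transcript and less of it per cell cannot be told apart. Whether the 2 libraries of a group come from different cultures is not stated, and the p-values therefore rest on a spread between libraries that may be technical.

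Levels between genes are compared in CPM divided by the length in kilobases of all annotated exons of the gene, merged over its transcripts. In DMSO-treated KARPAS422 of the MI-503 experiment SETD3 had the highest level of the 19, 26.3 ± 0.938 (SD, n = 2), followed by SETD8 with 24.0 ± 1.21 and SETD2 with 17.3 ± 0.191. The libraries were at 26.9 and 25.6 for SETD3 and at 23.1 and 24.8 for SETD8, so that these neighbours lay close to their spread, while SETD2 was below both. NSD2 (15.9 ± 0.423), NSD3 (14.8 ± 0.388), SMYD5 (11.3 ± 0.0925) and NSD1 (11.0 ± 0.0868) came next, and the ranges of NSD2 and NSD3 did not overlap. SUV420H2 stood ninth with 6.64 ± 0.622 and its range held that of ASH1L (6.23 ± 0.0233). At the other end SETD6 was at 0.0633 ± 0.00521. Of the 4 genes that scored below −1 in KARPAS422, 3 were thus the most expressed of the 19 by this measure. That order rests on the length used. In plain CPM of the same libraries NSD2 (323), SETD2 (248), NSD1 (239) and NSD3 (225) lay above SETD3 (136) and SETD8 (101). Across the 19 genes the log2 level per kilobase (with 0.1 added) and the score had r −0.341 and rho −0.435, given as a description. In DMSO libraries of the drug combination SETD3 (45.4 ± 5.22) and SETD8 (25.3 ± 1.79) led again, then came NSD2 (21.7 ± 0.508), SMYD5 (17.7 ± 0.598) and SETD2 (17.6 ± 2.56), with r −0.335 and rho −0.314 against the score.

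SMYD1 had no count in any of the 4 libraries of the MI-503 experiment, a limit of 3 counts per library. In KARPAS422 sgRNAs against this gene thus give a value for cutting a gene without measured RNA in that experiment, −0.57. All 4 were below 0 in this line, between −0.83 and −0.41. The gene scored 0.42 in K562, where its RNA was not measured. Of the other 18 members, 12 scored lower than SMYD1 in KARPAS422 and 6 higher. In the drug combination SMYD1 had at most 8 counts in 7 libraries and 64 in replicate 2 of both drugs. SETMAR was listed at 0 in all 16 libraries of the drug combination table and held 134 to 796 counts in the 16 of the MI-503 table. The whole SETMAR gene lies inside SUMF1 on the opposite strand, and the use of strand in the counting is unknown here, which leaves its level uncertain. NSD3, SETD4, SETD6 and SMYD4 overlap a protein-coding gene on the opposite strand over a smaller part.

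With MI-503, 5 of the 18 members tested rose and 6 fell in KARPAS422 at an adjusted p under 0.1. All but SETD6 had log2 fold changes between −0.30 and 0.37. Over all genes 25.5% rose and 26.3% fell, so the members moved about as often as genes in general, with a median log2 fold change of 0.01 for both. SMYD1 did not pass the filter on low counts. SETD8 fell to 81.4 and 83.5 CPM with MI-503, against 97.5 and 104.7 with DMSO (log2 fold change −0.30 ± 0.04 SE, adjusted p = 0.00022). SETD2 fell to 213.1 and 207.9, against 249.6 and 245.7 (−0.23 ± 0.03, adjusted p = 1.0e-04). Both of the lowest-scoring members thus had less RNA under MI-503, as did 26.3% of all genes. The groups overlapped in neither, but the same held for most members, 15 of the 18 tested. How often this held over all genes was not counted, so no weight is put on it. NSD2 was at 273.4 and 276.6 CPM with MI-503 and at 316.6 and 328.8 with DMSO (−0.23 ± 0.03), and NSD1 at 212.8 and 211.8 and at 240.0 and 237.4 (−0.17 ± 0.03). SETD7 had the lowest fold change, with 99.8 and 98.9 against 123.7 and 121.4 (−0.30 ± 0.03, adjusted p = 3.7e-05). These 5 falls were called under all 8 alternatives run.

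SUV420H2 moved the other way and rose to 40.7 and 41.5 CPM with MI-503, against 29.6 and 33.8 with DMSO (log2 fold change 0.37 ± 0.06 SE, adjusted p = 0.00070). SMYD3 rose to 40.1 and 45.5, against 32.9 and 33.3 (0.36 ± 0.06), and SETD5 to 168.8 and 170.4, against 144.3 and 145.4 (0.23 ± 0.03). These 3 rises were likewise called under all 8 alternatives. The calls of SETD6, SETMAR and SMYD5 depended on the setting. SETD6 (0.78 ± 0.35) had 40 and 25 raw counts with MI-503 and 28 and 25 with DMSO and was not called without any 1 of the 4 libraries, SETMAR (−0.28 ± 0.09) not without MI-503 replicate 2, and SMYD5 (0.14 ± 0.05) not without DMSO replicate 2 or MI-503 replicate 1, and DESeq2 called none of these 3. SETD3 was at 143.3 and 141.2 against 139.7 and 132.8 (0.06 ± 0.04, adjusted p = 0.16), and without DMSO replicate 1 it was called (0.10, adjusted p = 0.041).

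In the drug combination experiment the 3 comparisons share their 2 DMSO libraries and 1 fit, which did not pair same-numbered libraries. With EPZ-6438, SMYD2 rose and SETD8 and SMYD5 fell, 1 and 2 of the 17 members tested, beside 8.27% of all genes that rose and 10% that fell. SMYD1 and SETMAR did not pass the filter. SMYD2 rose to 41.6 and 42.0 CPM with EPZ-6438, against 26.4 and 21.9 with DMSO (log2 fold change 0.77 ± 0.11 SE, adjusted p = 0.013). SETD8 fell to 80.5 and 80.4, against 112.0 and 101.3 (−0.44 ± 0.10, adjusted p = 0.043), and SMYD5 to 49.2 and 45.9, against 58.2 and 61.0 (−0.36 ± 0.10, adjusted p = 0.066). The groups of these 3 genes did not overlap, which held for 9 of the 17 members tested, called or not, and was not counted over all genes. Without EPZ-6438 replicate 2 no member and no gene of the table was called, with adjusted p = 0.44 for SMYD2, 0.92 for SETD8 and 0.98 for SMYD5, and SMYD5 was not called without DMSO replicate 2 either (adjusted p = 0.14). SETD3 was at 189.5 and 180.8 against 254.6 and 216.3 (−0.38 ± 0.15, adjusted p = 0.17) and was called with the replicate block (adjusted p = 0.095). SETD2 (0.04 ± 0.19) and SUV420H2 (−0.32 ± 0.16) did not pass the test, and without DMSO replicate 1 SUV420H2 was called (−0.57, adjusted p = 0.0997).

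With VTP50469, none of the 17 members rose or fell, beside 3.18% of all genes that rose and 0.197% that fell. By edgeR 1 member, SUV420H2, had an unadjusted p under 0.05, and DESeq2 called none. SUV420H2 was at 52.3 and 46.3 CPM with VTP50469 and at 32.2 and 43.5 with DMSO (log2 fold change 0.42 ± 0.16 SE, adjusted p = 0.32). SETD8 was at 95.4 and 92.1 against 112.0 and 101.3 (−0.14 ± 0.10, adjusted p = 0.67). SETD2 had a log2 fold change of −0.02 ± 0.19 (adjusted p by edgeR 0.99). The members' median of −0.02 lay beside 0.00 for all genes.

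With both drugs, SETD8, NSD2, SETD3, SETD7 and SMYD5 fell and SMYD2 and SMYD3 rose. These are 5 and 2 of the 17 members tested, beside 25.2% of all genes that fell and 23.5% that rose. The groups did not overlap in 9 of the 17, called or not, and this too was not counted over all genes. SETD3 fell to 131.5 and 102.6 CPM with both drugs, against 254.6 and 216.3 with DMSO (log2 fold change −0.98 ± 0.15 SE, adjusted p = 0.0035). NSD2 fell to 243.5 and 207.4, against 448.1 and 433.5 (−0.94 ± 0.11, adjusted p = 0.0012). SETD8 fell to 61.5 and 56.9, against 112.0 and 101.3 (−0.82 ± 0.10, adjusted p = 0.0014). SMYD5 fell to 37.9 and 35.3, against 58.2 and 61.0 (−0.68 ± 0.10, adjusted p = 0.0027). In these 4 genes both drug-treated libraries lay far below both DMSO libraries, and the falls were called under all 9 alternatives run, each library of either group left out in turn among them. SETD3 and SETD8 were so 2 of the 4 genes that scored below −1 in KARPAS422, while SETD2 was at 272.3 and 191.4 against 278.1 and 226.4 (−0.09 ± 0.19, adjusted p = 0.70) and SUV420H2 at 36.6 and 41.3 against 32.2 and 43.5 (0.06 ± 0.16, adjusted p = 0.78).

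The other 3 calls with both drugs depended on single libraries and were not made in a fit of the 2 groups alone. SETD7 (−0.50 ± 0.17, adjusted p = 0.060) was not called without DMSO replicate 1 (adjusted p = 0.15) or without replicate 2 of both drugs (0.12). SMYD2 was at 31.1 and 29.6 CPM with both drugs and at 26.4 and 21.9 with DMSO (0.36 ± 0.11, adjusted p = 0.036) and was not called without DMSO replicate 2 (0.28) or without replicate 1 of both drugs (0.41). SMYD3, at 96.5 and 149.8 against 81.2 and 77.7 (0.65 ± 0.19, adjusted p = 0.032), was not called without DMSO replicate 1 (0.15) or DMSO replicate 2 (0.17). With replicate 1 of both drugs left out, 10 members fell, ASH1L, NSD1, NSD3, SETD2 and SETD5 added to the 5 above, and SMYD1 and SMYD3 rose. With replicate 2 of both drugs left out 4 fell, all but SETD7, and SMYD2, SMYD3 and SUV420H1 rose. Without DMSO replicate 1 SMYD2 alone rose, and without DMSO replicate 2 no member did. With the replicate block NSD3 was called too (−0.39, adjusted p = 0.051). Side by side, the log2 fold change of SETD8 was −0.30 with MI-503, −0.44 with EPZ-6438, −0.14 with VTP50469 and −0.82 with both drugs, and the last 3 comparisons share their DMSO libraries.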

How the data were processed

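The 4 screen libraries and 12 KARPAS422 RNA libraries were used and grouped by the labels. The authors deposited raw sgRNA counts, made from trimmed reads (cutadapt, MAGeCK), and raw gene counts, made by alignment to hg38 with HISAT2 (2.1.0) and counting with featureCounts (1.6.1). CASAVA (1.7) and Picard (2.23.1) also stand in the submitters' processing notes, where their use is unstated. The counting's strand setting and annotation were not given in the sources used here. RNA was extracted with AllPrep by the labels and with Trizol by the methods, and depleted of ribosomal RNA by both.

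The sgRNA counts were scaled to equal totals and given a pseudocount of 1. Those under 30 counts on day 0 were left out, and the median control was set to 0. All member genes were named, with single sgRNAs for genes that scored below −1, had sgRNAs on both sides of −1 or spanned over 3 log2 units, and up to 3 genes of each comparison list by the lowest score. The members' rule reads gene symbols only, but it and the lists were chosen with earlier results of these data known. For RNA, edgeR (4.0.16, in R 4.3.3) was used with filterByExpr, TMM factors and its quasi-likelihood test. P-values were adjusted by Benjamini-Hochberg over every gene tested and called under 0.1. The fit held the 4 libraries of the MI-503 experiment or the 8 of the drug combination. Members were matched by current symbol, all 19 in both tables. Positions and exon lengths are from GENCODE on hg38. One marker gene of the B cell list is not reported here. Libraries of a group differed by 1.82 to 47.5 in the chi-square statistic per gene, so none was counted as deposited more than once. In the drug combination the deviations of same-numbered libraries correlated at 0.647 to 0.863 over the 6 pairs of groups. The numbers were taken as a possible pairing, although neither the labels nor the methods say so and each group holds 2 numbers only. The main fits did not use this pairing, which entered only as the replicate block among the alternatives. A deeper library has less counting error. Scripts were tested on simulated data. The alternatives were RLE size factors, no filter, DESeq2 (1.42.0), the replicate block, the 2 compared groups alone and fits without each single library. For the screen they were 2 other centrings, a pseudocount of 5, a day 0 minimum of 0 or 100 counts, means in place of medians and the median without the lowest sgRNA.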

Additional observations from a re-analysis of the deposited data

Results flagged for a closer look

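In 9 of the 19 genes the score was below 0 in KARPAS422 and above 0 in K562, so with control centring the lines lay on opposite sides of the controls. This is 47.4% of the members, beside 24.1% of all genes (136 of 564), and the members were not tested as a set. With 1 library per line and day the difference between the lines was not tested. The differences, KARPAS422 minus K562, were −3.004 for SETD8, −1.66 for SETD3, −1.09 for WHSC1L1, −0.996 for SMYD4, −0.99 for SETD6, −0.99 for SMYD1, −0.70 for SMYD2, −0.59 for SMYD3 and −0.19 for SETD5. With library totals alone SETD8 and SETD3 were the 2 of these 9 that still lay below 0 in KARPAS422 and above 0 in K562. Outside the 9, ASH1L (−0.15 and 0.08) and NSD1 (−0.12 and 0.01) then did so too. With all sgRNAs as the centre SETD8 and SETD3 did so, and also SMYD4 (−0.02 and 0.51) and SETD6 (−0.0075 and 0.51) of the 9. ASH1L (−0.23 and 0.11), NSD1 (−0.21 and 0.05) and SETD7 (−0.06 and 0.10) joined them from outside. The share of all genes was not counted with these 2 centres. Of the 9 genes, only SETD8 scored below −1 in KARPAS422 with all 3 centres of the log2 changes. The part of the shift of the whole library against the controls, larger in KARPAS422, in these differences was not tested.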

How the results depend on the processing

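In the screen, the pseudocount and the day 0 minimum moved no count of members by over 1.5 times. They moved no median of the members beyond the members' median counting limits, which cover counting error only. Centring on all sgRNAs and library totals alone put 2 genes and 11 or 10 sgRNAs of the members below −1 in KARPAS422, with medians of −0.0075 and 0.078 in KARPAS422, 0.16 and 0.13 in K562 and −0.25 and −0.14 for their difference, and over the library 110 and 105 genes in place of 184 in KARPAS422. The mean over sgRNAs put 2 members below −1 in K562 (63 genes in place of 23) and gave a median of 0.10 there, and leaving out each gene's lowest sgRNA gave medians of −0.54 in KARPAS422 and 0.16 in K562.

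With MI-503, DESeq2 called 3 rises, and leaving out 1 library gave 3 to 5 rises and 5 to 6 falls. With EPZ-6438 the members that fell were 4 with RLE size factors, DESeq2 or the 2 groups alone, where NSD2 and SETD3 were added, and 1 without the filter, and leaving out 1 library gave 0 to 1 rises and 0 to 3 falls. With both drugs the 2 groups alone gave 0 rises, and leaving out 1 library gave 0 to 3 rises and 4 to 10 falls. VTP50469 gave 0 throughout. With 1 library left out its lone partner is assumed to vary like the other groups. The log2 fold change of SETD2 changed sign in such fits, between −0.19 and 0.15 with EPZ-6438, −0.18 and 0.15 with VTP50469 and −0.58 and 0.13 with both drugs, as did that of SUV420H2 with both drugs, between −0.16 and 0.24. Among the members neither called nor below −1 in KARPAS422, 44 of 336 values turned sign, 1 of them called, that of ASH1L without replicate 1 of both drugs (−0.32).

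The replicate block left the members at 6 rises and 6 falls with MI-503, where SETD3 was added (0.06, adjusted p by edgeR 0.076), 1 and 3 with EPZ-6438, 0 and 0 with VTP50469 and 2 and 6 with both drugs. Beside these and the SETD3 and NSD3 calls given above, the pairing changed no call of a member. In the MI-503 experiment the deviations of same-numbered libraries correlated at −0.0201. A single value from 2 groups of 2 libraries cannot settle whether such libraries share more than a number. The depth of the screen limits sgRNAs of low starting count most, with intervals of up to 1.21 log2 units in KARPAS422 and 2.59 in K562, the sgRNA without a count aside.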
